A study of Mus musculus with 24 samples.

Results

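The comparison described here sets MLO-Y4 cells held at the position labelled ug of a high magneto-gravitational platform (ug, simulated microgravity) against cells kept in an incubator (C). Both groups had received an irrelevant rabbit IgG. It uses 6 of the 24 arrays of the series, 3 at ug and 3 in the incubator, chosen by title, with ug and C arrays paired by the number (1 to 3) in the title. MLO-Y4 is an immortalised mouse cell line with features of osteocytes, and every sample is this 1 line. The other 18 arrays hold the 1g and 2g positions with the same IgG (3 each) and the 4 environments with Cx43(E2), an antibody that blocks hemichannels of connexin 43 (3 each, called the E2 arm). The irrelevant IgG was added at 1:50 for 30 min at 37 °C in 5% CO2, after which the dishes were divided among ug, 1g, 2g and the incubator. How long the cells stayed on the platform is not given in the sources used here. Total RNA was labelled with biotin and hybridised to Affymetrix arrays.

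Osteocytes are cells buried in bone matrix that sense load, and they release signals that set bone formation and resorption. Connexin 43 hemichannels are one of their routes for releasing small molecules after mechanical stimulation. In a magnet with a steep field gradient, water-rich material is pushed against its own weight, so that a dish can be held near weightlessness or at a higher effective weight while it stays in a strong field. Cells at ug and cells in the incubator therefore differed in effective weight, in magnetic field and in apparatus, and these cannot be told apart from the 6 arrays. The 1g position shared the platform with ug and is used below for that reason.

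The median log2 value of an array was 6.48 to 6.60 over the 6 arrays and 6.48 to 6.65 over all 24, and 14489 genes were tested. Of the osteocyte genes, Gja1 (connexin 43), Pdpn (podoplanin), Cd44, Sost and Fgf23 reached the brightness filter on 24 of 24 arrays. The osteoblast genes Col1a1 and Alpl did so too. The osteocyte genes Dmp1, Mepe and Phex reached it on 0 arrays, as did Ptprc of blood cells and Adipoq of fat cells. The osteoclast gene Acp5, the muscle gene Myod1 and the cartilage gene Col2a1 reached it on 24 of 24 arrays. Reaching the filter is therefore no sign of cell type. Arrays numbered 3 stood apart from those numbered 1 and 2: deviations from the group means correlated across genes at -0.81 to -0.32 between number 3 and the others, and at 0.25 to 0.76 between arrays of the same number. Values without number 3 or without number 2 are given below for several genes. No label says that the 3 arrays of a group came from separate cultures, so p-values measure only the spread between these arrays, and the number of arrays limits the precision.

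With the array pairs as a block and all 24 arrays in the fit, 0 of 14489 genes passed limma's test for ug against C at an adjusted p below 0.05 (0%). The smallest adjusted p was 0.0508, for Banp. At an unadjusted p below 0.05 there were 1582 genes (10.9%), of which 632 were higher (4.36%) and 950 lower (6.56%) at ug. After quantile normalization the split was 760 higher and 641 lower. Without the pairing there were 748 genes at this threshold (5.16%). Without the arrays numbered 2 there were 607 genes (4.19%), and without those numbered 3 there were 1036 genes (7.15%). The difference had one sign in all 3 pairs for 2749 genes above 0 (19.0%) and for 3174 genes below 0 (21.9%). The 3 ug arrays all lay above the 3 incubator arrays for 1066 genes (7.36%) and all below them for 824 genes (5.69%). Expression differences between ug and the incubator are therefore given below as values with their errors, and no gene is said to have risen or fallen. In a bulk RNA sample, fewer cells with a transcript and less of it per cell cannot be told apart.

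Among the 12 genes with the smallest p on the higher side were 3 genes of protein chaperones known as heat shock proteins. Cells make these proteins when other proteins lose their fold, for example in heat. Hspa1a encodes the inducible HSP70 of the cytosol, Hspb1 the small heat shock protein HSP25, and Serpinh1 the collagen chaperone HSP47 of the endoplasmic reticulum. Transcription of heat shock genes is switched on by heat shock factors, which bind inverted repeats of GAA, such as GAANNTTC, before the start site. The 150 bases before the start of the 3 genes are shown because all 3 encode heat shock proteins and were higher at ug in each pair. They are from RefSeq (GRCm38.p6), with matches to GAANNTTC in capitals.
Hspa1a, chr17:34972157-34972306, minus strand: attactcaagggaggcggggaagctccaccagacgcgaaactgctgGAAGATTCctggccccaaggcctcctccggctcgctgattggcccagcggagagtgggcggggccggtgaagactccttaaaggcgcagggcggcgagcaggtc
Hspb1, chr5:135887769-135887918, plus strand: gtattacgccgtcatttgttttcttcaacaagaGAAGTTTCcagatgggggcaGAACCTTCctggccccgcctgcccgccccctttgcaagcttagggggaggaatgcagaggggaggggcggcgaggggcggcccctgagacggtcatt
Serpinh1, chr7:99353240-99353389, minus strand: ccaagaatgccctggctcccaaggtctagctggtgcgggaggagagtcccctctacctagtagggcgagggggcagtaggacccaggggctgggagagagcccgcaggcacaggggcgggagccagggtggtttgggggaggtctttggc

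GAANNTTC reads the same on both strands, so 1 search covers both. Hspa1a had 1 match, which began 104 bases before the start, and Hspb1 had 2, at 117 and 97 bases. Serpinh1 had 0 in a window of 250 bases before to 50 after the start. In windows of that size it occurred in 2582 of 32851 RefSeq promoters (7.86%). It occurred in 9 of the 16 members of the heat shock list with a RefSeq promoter, and in 2 of the 19 such genes among the 24 described next, Hspa1a and Hspb1. A gene counted if any of its windows matched, and some had 2 or 3, while the 7.86% counts single windows. These matches describe letters, not binding.

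Hspa1a (probe set 10450369) read 7.91, 8.15 and 7.94 on the ug arrays, against 7.23, 7.68 and 7.51 on the incubator arrays. Every ug array lay above every incubator array, and the difference was 0.52 ± 0.11 (log2, standard error, limma adjusted p = 0.104). Hspa1a has a near-identical neighbour, Hspa1b, and how probes divide their signal between the 2 genes is uncertain. Hspb1 (10408928) read 9.58, 9.65 and 9.60 at ug, against 9.30, 9.38 and 9.21 in the incubator, again without overlap (0.31 ± 0.06, adjusted p = 0.104). A second Hspb1 probe set, 10526410, differed by 0.28, 0.23 and 0.33 in the 3 pairs. Serpinh1 (10565794) read 11.01, 11.12 and 10.84 at ug, against 10.68, 10.78 and 10.75 in the incubator (0.25 ± 0.05, adjusted p = 0.104). Its ug arrays all lay above, with the smallest pair difference, 0.10, in number 3.

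Banp and Efna2 had the smallest p-values on the higher side. Banp (10576073), a nuclear protein that binds CpG island promoters, read 9.32, 9.56 and 9.22 at ug, against 8.75, 8.99 and 8.97 in the incubator. The groups did not overlap, and the difference was 0.46 ± 0.07 (limma adjusted p = 0.0508). Without the arrays numbered 3 it was 0.57, with an adjusted p of 0.0290. Efna2 (10364722), an ephrin that sits in the membrane and binds Eph receptors of neighbouring cells, read 9.06, 9.24 and 8.72 at ug, against 8.44, 8.89 and 8.51 in the incubator. The ranges overlapped through number 2 of the incubator, while each pair was higher at ug (0.39 ± 0.07, adjusted p = 0.0959). After quantile normalization Banp, Efna2 and Serpinh1 passed limma's adjusted threshold, with differences of 0.51, 0.43 and 0.29 and adjusted p-values of 0.00466, 0.0219 and 0.0367.

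The other 7 genes on the higher side had adjusted p-values between 0.0959 and 0.187. Vpreb2 (10434128), a part of the surrogate light chain of B-cell precursors, read 6.43, 6.48 and 6.59 at ug, against 6.12, 6.10 and 6.05 in the incubator (0.41 ± 0.08). Bik (10425801), a BH3-only protein that promotes apoptosis, read 6.47, 6.45 and 6.35 at ug, against 6.05, 6.11 and 6.13 in the incubator (0.32 ± 0.08). Baiap2 (10383289), which links small GTPases to actin at the membrane, read 10.54, 10.63 and 10.80 at ug, against 10.25, 10.48 and 10.46 in the incubator (0.26 ± 0.06). In all 3 genes the groups were apart. Snord14e (10584580), a small nucleolar RNA encoded in an intron of the heat shock cognate gene Hspa8, read 9.43, 9.29 and 9.19 at ug, against 8.91, 9.05 and 8.75 in the incubator (0.40 ± 0.09). Hspa8 itself read 13.32, 13.31 and 13.19 at ug and 13.31, 13.29 and 13.28 in the incubator, overlapping ranges with a difference of -0.02 ± 0.03 (adjusted p = 0.782). Gm5627 (10588238, 0.42 ± 0.10), the homeobox gene Hmx3 (10558239, 0.40 ± 0.10) and the membrane protein gene Tmem204 (10448836, 0.36 ± 0.09) completed the 12. Of the 12 genes, 11 had groups that did not overlap, against 7.36% of all genes tested with every ug array above. They had been chosen on the same arrays. Of the 12, 4 belonged to the dimmest quartile of genes.

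On the lower side the interleukin gene Il1a had the largest difference. Il1a (10487588) encodes interleukin 1 alpha, an inflammatory cytokine that also acts as an alarm signal from damaged cells. It read 7.46, 7.21 and 7.69 at ug, against 8.64, 7.89 and 8.36 in the incubator. All ug arrays lay below, by 1.18, 0.68 and 0.67 in pairs 1 to 3, and the fitted difference was -0.84 ± 0.16 (limma adjusted p = 0.0959). With only the 12 arrays of the IgG arm in the fit it passed, with an adjusted p of 0.00413.

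Cirbp (10364712) encodes the cold-inducible RNA-binding protein, which cells make more of below body temperature and less of above it. It read 8.96, 8.94 and 9.16 at ug, against 9.26, 9.36 and 9.46 in the incubator. The groups were apart, and the pairs differed by -0.31, -0.42 and -0.31 (-0.35 ± 0.06, limma adjusted p = 0.0959). Cdc42ep3 (10453049), an effector of the GTPase CDC42 in actin and septin organisation, read 10.38, 10.42 and 10.47 at ug, against 10.93, 10.69 and 10.91 in the incubator (-0.42 ± 0.08, adjusted p = 0.0959). Adm (10556297), the gene of the vasodilator peptide adrenomedullin and a target of the hypoxia response, read 9.88, 9.82 and 9.78 at ug, against 10.39, 10.14 and 9.96 in the incubator (-0.34 ± 0.07, adjusted p = 0.13). Both genes had ug arrays that all lay below the incubator arrays. The kinase gene Map3k20 (10472893), whose product responds to stalled ribosomes, read 10.49, 10.37 and 10.48 at ug, against 10.72, 10.60 and 10.70 in the incubator, with the same difference of -0.22 in each pair (-0.22 ± 0.05, adjusted p = 0.104).

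Errfi1 (10510574), a feedback inhibitor of the EGF receptor, read 12.50, 12.36 and 12.61 at ug, against 12.67, 12.58 and 12.79 in the incubator. Its ranges overlapped, while each pair was lower at ug (-0.19 ± 0.04, limma adjusted p = 0.0959). The other 6 genes on the lower side were Plekha3 (10473097, -0.19 ± 0.04) and Arf2 (10381744, -0.27 ± 0.06), both of the Golgi, Kctd9 (10416155, -0.35 ± 0.07), an adaptor of ubiquitin ligases, the ubiquitin ligase gene Herc3 (10538658, -0.31 ± 0.07), the phospholipid acyltransferase gene Lpcat3 (10541695, -0.14 ± 0.03) and Sestd1 (10484227, -0.32 ± 0.07). Adjusted p-values of the 12 lower genes ran from 0.0959 to 0.131. Of the 12, 8 had groups that did not overlap, against 5.69% of all genes tested with every ug array below. Without the pairing, 8 of the 12 lower genes had an unadjusted p below 0.05 by limma, and 12 of the 12 higher genes. Lpcat3, Herc3, Sestd1 and Errfi1 did not (0.33, 0.22, 0.16 and 0.096).

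**Figure D1:**
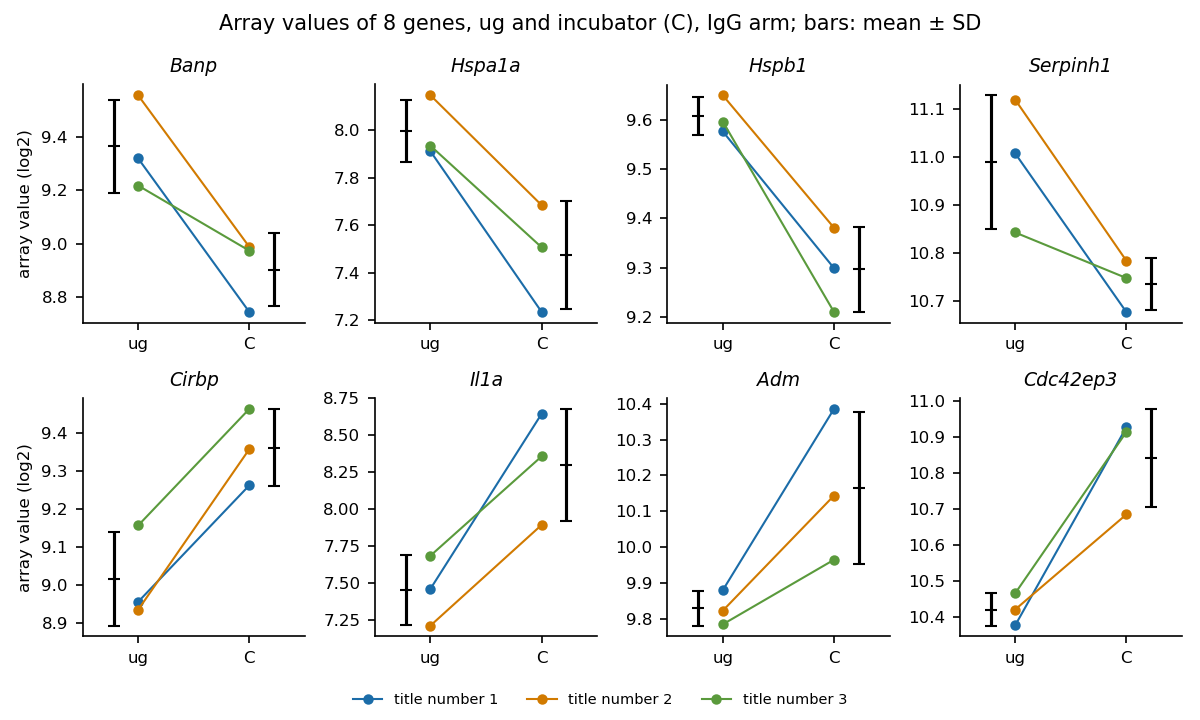
Log2 array values of 8 genes on the 3 ug arrays (left in each panel) and the 3 incubator arrays (C, right) of the IgG arm, with lines joining arrays of the same title number and bars giving the mean ± SD of each group. The upper 4 genes were higher and the lower 4 lower at ug in every pair, and in none of the 8 do the groups overlap.

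**Figure D2:**
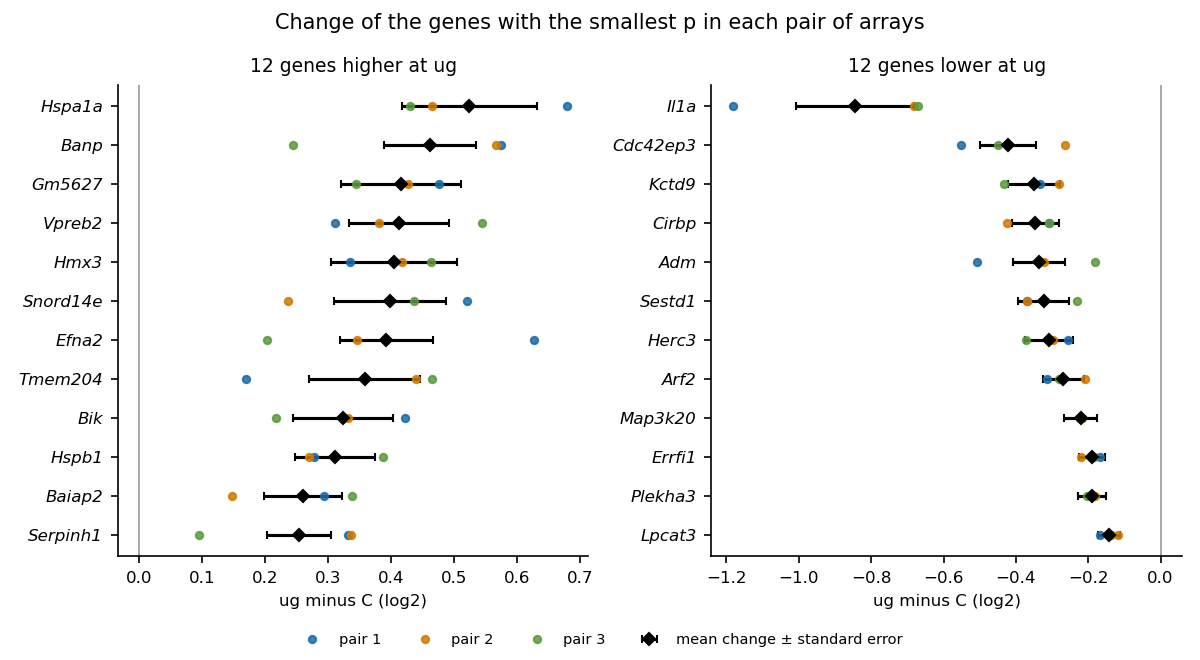
Difference of ug minus incubator (log2) for the 12 genes with the smallest p in each direction, with 1 point for each of the 3 array pairs and a diamond with a bar for the fitted difference ± standard error. The pair differences of Map3k20 coincide at -0.22, while those of Il1a run from -1.18 to -0.67.

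The plot of array values shows that the pairs differed in level as well as in difference: number 2 was the highest array of both groups for Hspa1a and Hspb1, and number 3 the highest for Cirbp. The plot of pair differences shows how far the pairs agreed for each gene. These 24 genes were chosen for a small p and for 1 sign in the 3 pairs. Their signs and the gaps between their groups are therefore a description and no support.

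The largest differences among genes with an unadjusted p below 0.05 and 1 sign in the 3 pairs were of another kind. On the higher side they were Fosb, Atf3, Fos, A3galt2, Arc and Rsrp1, and on the lower side Il1a, Eid3, Gm5486, Tmem87b, Sp4 and Ankrd49. A3galt2 (10508368), a glycolipid galactosyltransferase gene, read 6.30, 5.82 and 6.95 at ug, against 5.73, 5.44 and 5.99 in the incubator (0.63 ± 0.21, limma adjusted p = 0.335). This gene is dim: incubator arrays 1 and 2 and ug number 2 lay below their filter values of 5.935, 5.90 and 6.02. Arc (10429491), an immediate early gene known from neurons, read 9.27, 9.07 and 10.23 at ug, against 8.76, 8.96 and 9.07 in the incubator (0.60 ± 0.18, adjusted p = 0.271). In both genes the ug array numbered 3 was the highest of the 6, and without number 3 the differences were 0.47 for A3galt2 and 0.32 for Arc. Rsrp1 (10509014) differed by 0.54 ± 0.14. The transcription factor gene Sp4 (10403193) read 6.30, 6.20 and 6.02 at ug, against 6.72, 6.58 and 6.51 in the incubator, without overlap (-0.43 ± 0.13, adjusted p = 0.27). Eid3 (10365286, -0.47 ± 0.19), Gm5486 (10439845, -0.44 ± 0.11), Tmem87b (10475912, -0.43 ± 0.13) and Ankrd49 (10590968, -0.42 ± 0.12) had overlapping groups.

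Immediate early genes are transcribed within minutes of a stimulus, without new protein synthesis, and in bone cells many of them respond to mechanical load. Of 30 tested, 21 were higher and 9 lower at ug, with a median of 0.11, against a median of -0.00 over all genes tested. After quantile normalization 24 of the 30 were higher (median 0.13). For this list and those below, 49.2% of all genes tested were higher, and 52.1% after quantile normalization. In the brightest quartile of genes the shares were 33.9% and 49.1%. At an unadjusted p below 0.05 by limma, 4.36% of all genes were higher and 6.56% lower. A list count near these shares is no result about the list. At an unadjusted p below 0.05 there were 5 higher and 2 lower, and 0 passed limma's adjusted threshold. The members did not behave alike in the 3 pairs. Their median difference was 0.06 in pair 1, -0.01 in pair 2 and 0.26 in pair 3, and 18, 13 and 23 of the 30 were higher in pairs 1, 2 and 3. Without number 3 the median was 0.02, and without number 2 it was 0.17.

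Gem (10503334), a small GTPase gene of the immediate early class that restrains calcium channels and acts on the cytoskeleton, had the widest spread. It read 8.30, 5.97 and 10.51 at ug, against 6.41, 6.06 and 6.76 in the incubator. The ug array numbered 3 was far above all others, the one numbered 1 lay between, and the one numbered 2 was the lowest of the 6. The pairs differed by 1.89, -0.09 and 3.74 (1.85 ± 0.66, limma adjusted p = 0.366). Without number 2 the difference was 2.82, with an adjusted p of 0.00743, and without number 3 it was 0.90, with an adjusted p of 0.757.

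The AP-1 genes Fosb and Fos and the stress-induced factor Atf3 had the same order of ug arrays. Fosb (10560481) read 7.88, 7.29 and 9.24 at ug, against 7.61, 7.19 and 7.49 in the incubator (0.71 ± 0.30, limma adjusted p = 0.429). Atf3 (10361091) read 8.31, 7.86 and 9.56 at ug, against 7.86, 7.81 and 7.96 in the incubator (0.70 ± 0.29, adjusted p = 0.41). Fos (10397346) read 7.36, 6.91 and 8.64 at ug, against 6.84, 6.91 and 7.20 in the incubator (0.65 ± 0.29, adjusted p = 0.437). In each of the 3 genes, ug number 3 was more than 1 log2 unit above its pair, and ug number 2 was within 0.11 of its own. Without number 3 the differences were 0.19 for Fosb, 0.25 for Atf3 and 0.26 for Fos. The zinc finger factor gene Egr1 (10454782) read 9.71, 9.11 and 10.62 at ug, against 9.20, 8.96 and 9.70 in the incubator (0.53 ± 0.24, adjusted p = 0.443), and without number 3 its difference was 0.33. Nr4a1 (10427035), an orphan nuclear receptor gene, differed by -0.18, -0.27 and 1.39 in the 3 pairs (0.31 ± 0.37, and -0.23 without number 3). Jun (10514466), the partner of Fos in AP-1, lay on the other side: it read 10.77, 10.82 and 10.92 at ug, against 10.93, 10.88 and 11.05 in the incubator (-0.12 ± 0.04, adjusted p = 0.383).

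**Figure D3:**
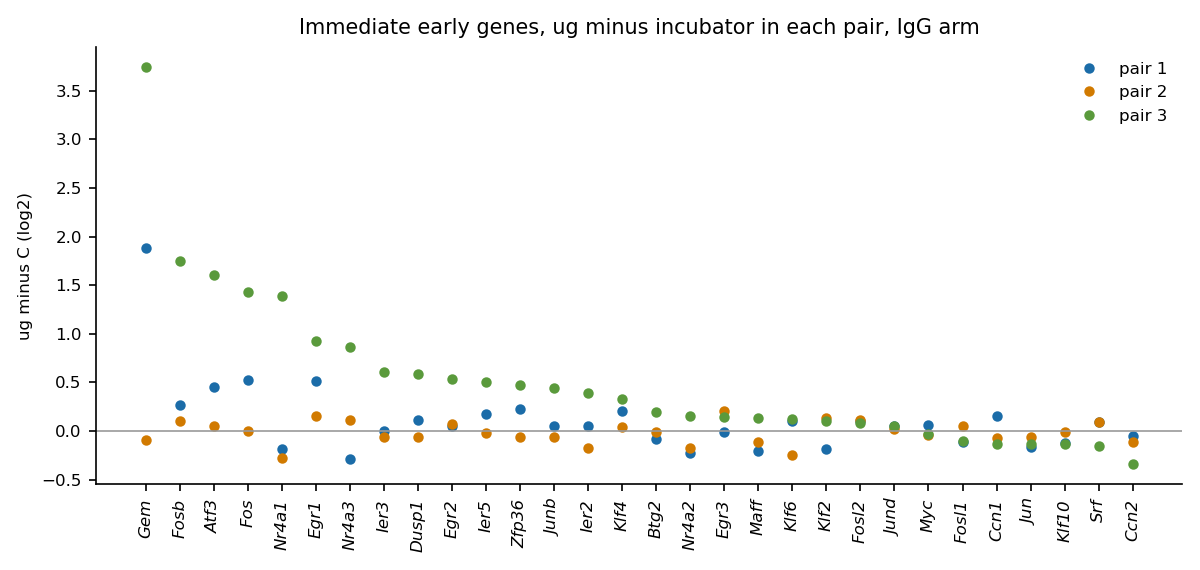
Difference of ug minus incubator (log2) of the 30 immediate early genes tested, IgG arm, with 1 point for each of the 3 array pairs and genes ordered by pair 3. Pair 3 exceeds 1 for Gem, Fosb, Atf3, Fos and Nr4a1, while the points of pair 2 stay below 0.5 for every gene.

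The plot of immediate early genes shows the wide spread of pair 3 beside the narrow band of pair 2. Over all genes tested, 10 differed by more than 1 log2 unit in pair 3, 3 in pair 1 and 0 in pair 2. All 10 of pair 3 were higher at ug: beside the 5 in the plot they were Arc, Tent5c (10500610, 1.37 in pair 3), Ppp1r15a (10563338, 1.17), which restarts translation after stress, Mir99ahg (10436596, 1.13) and Trim69 (10475420, 1.01). The 3 of pair 1 were Gem, Il1a and a small nucleolar RNA gene, Snora75. Differences over 0.5 numbered 56 in pair 1, with 30 higher and 26 lower. They numbered 181 in pair 2, with 91 higher and 90 lower, and 111 in pair 3, with 88 higher and 23 lower. These genes were listed after their values were seen.

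Txnip (10494428), the gene of a thioredoxin-binding protein that responds to glucose and is a brake on its uptake, was lower where Gem was higher. It read 10.97, 11.39 and 10.31 at ug, against 11.50, 11.41 and 10.75 in the incubator. The pairs differed by -0.53, -0.02 and -0.44, and the ranges overlapped (-0.33 ± 0.12, limma adjusted p = 0.364). Without number 2 the difference was -0.48, with an adjusted p of 0.0405. Gem and Txnip were the 2 genes called without number 2.

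In the list of cytosolic heat shock proteins, 11 of 19 members were higher and 8 lower (median 0.02), and after quantile normalization 14 were higher (median 0.05). On the deposited values 3 had an unadjusted p below 0.05, all higher: Hspa1a, Hspb1 and Dnajb1. Dnajb1 (10573198), the inducible HSP40 partner of HSP70, read 9.80, 10.01 and 9.72 at ug, against 9.71, 9.74 and 9.48 in the incubator, with ranges that met at 9.72 and 9.74 (0.20 ± 0.09, limma adjusted p = 0.443). Bag3 (10557992), a co-chaperone of HSP70, differed by 0.12, 0.13 and 0.12 in the 3 pairs (0.13 ± 0.07). The abundant members lay near 0, with the cytosolic chaperone Hsp90aa1 (10378848) at -0.04 ± 0.10 and the mitochondrial chaperonin Hspd1 (10375240) at -0.07 ± 0.05. Among 11 collagen chaperones and crosslinking enzymes, 7 were higher and 4 lower (median 0.02), and 8 were higher after quantile normalization (median 0.05). Serpinh1 was the member with the smallest p, and Lox (10458894), the crosslinking enzyme of collagen and elastin, differed the other way (-0.10 ± 0.04, adjusted p = 0.429).

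The unfolded protein response answers misfolded proteins in the endoplasmic reticulum with chaperones, degradation factors and, if it lasts, proapoptotic factors. Of 25 members, 15 were higher (60%, against 49.2% of all genes tested) and 10 lower (median 0.02). At an unadjusted p below 0.05, 3 were higher and 1 lower. After quantile normalization 20 were higher (80%, against 52.1% of all genes tested). Sdf2l1 (10438098), a co-chaperone of the reticulum, read 11.26, 11.29 and 11.38 at ug, against 11.00, 10.89 and 11.24 in the incubator. The groups were just apart (0.27 ± 0.08, limma adjusted p = 0.261). Herpud1 (10574087), a degradation factor, read 10.83, 11.00 and 11.08 at ug, against 10.62, 10.55 and 10.82 in the incubator, also apart (0.30 ± 0.12, adjusted p = 0.393). Ddit3 (10366881), the proapoptotic factor CHOP, read 9.60, 9.36 and 9.32 at ug, against 9.09, 9.30 and 8.88 in the incubator (0.34 ± 0.11, adjusted p = 0.346). Atf6 (10359982), one of the 3 sensors of the response, was lower in each pair (-0.18 ± 0.05, adjusted p = 0.261). The main chaperone of the reticulum, Hspa5 (10471586), differed by 0.02 ± 0.03, with overlapping ranges.

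Cirbp belonged to a list of 16 temperature-sensitive RNA-binding and splicing genes, of which 3 were higher and 13 lower at ug (median -0.07). At an unadjusted p below 0.05, 0 were higher and 5 lower, and 5 of the 16 were higher after quantile normalization. Srsf5 (10508490), a splicing factor, read 9.48, 9.44 and 9.30 at ug, against 9.88, 9.77 and 9.54 in the incubator, without overlap (-0.32 ± 0.08, limma adjusted p = 0.189). Rbm3 (10556113), the other well-known cold-inducible RNA-binding protein, read 12.89, 12.89 and 12.83 at ug, against 12.96, 12.96 and 12.95 in the incubator. Its groups were also apart, by little (-0.08 ± 0.03, adjusted p = 0.384). Hnrnpd (10531633, -0.16 ± 0.05) and the helicase gene Ddx5 (10385484, -0.12 ± 0.05) were lower in each pair. No temperature is given for the platform or for the dishes on it, and the part of temperature in these differences was not tested.

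Of 21 targets of NRF2, the regulator of antioxidant genes, 8 were higher and 13 lower (median -0.05, 1 higher and 4 lower at an unadjusted p below 0.05), and 9 were higher after quantile normalization (median -0.023). Txnrd1 (10365260), thioredoxin reductase, read 11.55, 11.55 and 11.13 at ug, against 11.80, 11.70 and 11.31 in the incubator. Its ranges overlapped because both arrays numbered 3 were low, and each pair was lower at ug (-0.20 ± 0.04, limma adjusted p = 0.131). Nqo1 (10581538), a quinone reductase, differed by -0.10 ± 0.03. Hmox1 (10572897), heme oxygenase, lay on the other side and read 12.38, 12.46 and 11.80 at ug, against 12.17, 12.39 and 11.21 in the incubator (0.29 ± 0.11, adjusted p = 0.381).

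Of 21 cytokines and chemokines, 8 were higher and 13 lower (median -0.06, 0 higher and 5 lower at an unadjusted p below 0.05), and 9 were higher after quantile normalization (median -0.06). Il6 (10520452) read 10.68, 10.18 and 10.53 at ug, against 11.16, 10.55 and 10.53 in the incubator (-0.29 ± 0.10, limma adjusted p = 0.373). Lif (10373918), a cytokine of the same family, read 11.45, 11.08 and 11.47 at ug, against 11.89, 11.32 and 11.53 in the incubator (-0.25 ± 0.10, adjusted p = 0.394). In both genes pair 3 differed least, by -0.00 and -0.06. Ptgs2 (10350516), the inducible cyclooxygenase of prostaglandin synthesis, differed by -0.09 ± 0.03. Among 14 genes of prostaglandin synthesis and its receptors, 3 were higher and 11 lower (median -0.06), and after quantile normalization 5 were higher (median -0.024). The chemokine gene Ccl3 was called, beside Il1a, in the fit of the 12 IgG arrays alone (-0.37, adjusted p = 0.0369).

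Hypoxia and glycolysis genes, to which Adm belongs, were higher in 10 and lower in 15 of 25 cases (median -0.04, 0 higher and 5 lower at an unadjusted p below 0.05), and 11 were higher after quantile normalization (median -0.026). Hif1a (10396421), the oxygen-regulated factor itself, read 11.85, 11.62 and 11.91 at ug, against 11.94, 11.94 and 12.07 in the incubator, just apart (-0.19 ± 0.07, limma adjusted p = 0.385). Vegfa (10451198), the angiogenic growth factor, was lower in each pair (-0.16 ± 0.06), as was Egln3 (10400304), an oxygen-sensing hydroxylase (-0.19 ± 0.08). The glycolytic genes of the list had smaller differences, with hexokinase Hk1 (10414661) at -0.11 ± 0.04. A second Hk1 probe set, 10369541, differed by -0.04, 0.01 and -0.05 in pairs 1 to 3.

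Cell-cycle genes were higher in 9 and lower in 19 of 28 cases (median -0.04), and 13 were higher after quantile normalization. Rrm2 (10394978), the regulated subunit of ribonucleotide reductase, was the 1 member with an unadjusted p below 0.05. It read 12.49, 12.48 and 12.40 at ug, against 12.61, 12.59 and 12.60 in the incubator, without overlap (-0.14 ± 0.03, limma adjusted p = 0.184). Of 19 p53 targets, 13 were higher and 6 lower (median 0.03, 3 higher and 0 lower at an unadjusted p below 0.05), and 14 were higher after quantile normalization (median 0.06). Gadd45b (10364950), a stress-response gene, read 10.66, 10.46 and 11.08 at ug, against 10.08, 10.43 and 10.21 in the incubator (0.50 ± 0.14, adjusted p = 0.261, and 0.31 without number 3). Its ug number 2 lay only 0.04 above its pair, as with the immediate early genes. Pmaip1 (10456357), a BH3-only gene like Bik, was higher in each pair (0.23 ± 0.07, adjusted p = 0.331), and the survival gene Bcl2l2 (10415111) read 7.73, 7.75 and 7.74 at ug, against 7.996, 7.96 and 7.90 in the incubator (-0.21 ± 0.07, adjusted p = 0.322). Over 23 apoptosis regulators, 8 were higher and 15 lower, and after quantile normalization 13 were higher, which turned the sign of their median.

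Of 15 genes of the osteocyte itself, 8 were higher and 7 lower (median 0.00, 2 higher and 1 lower at an unadjusted p below 0.05), and 9 were higher after quantile normalization (median 0.024). Gja1 (10363173), the gene of connexin 43, read 11.57, 11.50 and 11.85 at ug, against 11.59, 11.55 and 12.002 in the incubator (-0.08 ± 0.05, limma adjusted p = 0.536). Both arrays numbered 3 were the highest of their group, and the ranges overlapped. Sost (10391508), which encodes the Wnt inhibitor sclerostin, an osteocyte product that restrains bone formation, read 6.95, 7.18 and 7.17 at ug, against 6.86, 6.88 and 6.97 in the incubator. The ranges met at 6.95 and 6.97 (0.20 ± 0.08, adjusted p = 0.428). Fgf23 (10542028), the phosphate hormone of osteocytes, read 7.03, 7.10 and 7.01 at ug, against 6.90, 6.89 and 6.89 in the incubator, apart but with a wide error (0.16 ± 0.11, adjusted p = 0.578). Ackr3 (10348451), a scavenger receptor of the chemokine CXCL12, was lower in each pair (-0.26 ± 0.08, adjusted p = 0.262).

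The RANKL gene Tnfsf11 (10421737), through which osteocytes drive osteoclast formation, read 9.41, 9.13 and 10.15 at ug, against 9.95, 9.21 and 9.68 in the incubator. The pairs disagreed, at -0.54, -0.08 and 0.47, and the difference was -0.05 ± 0.17 (limma adjusted p = 0.91). Its decoy receptor gene Tnfrsf11b (10428604) read 5.98, 6.13 and 6.26 at ug and 6.29, 5.93 and 6.17 in the incubator, overlapping ranges (-0.01 ± 0.10). Of 8 osteoblast genes, 7 were higher and 1 lower (median 0.05), and 6 were higher after quantile normalization (median 0.08). Col1a2 (10536220), a chain of type I collagen, read 7.53, 7.61 and 7.58 at ug, against 7.40, 7.34 and 7.50 in the incubator (0.16 ± 0.07, adjusted p = 0.442). The other chain, Col1a1 (10380419), had overlapping ranges (0.04 ± 0.07).

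Among 11 connexin and pannexin genes, 6 were higher and 5 lower (median 0.01), 6 were also higher after quantile normalization (median 0.05), and 5 of the 11 were in the dimmest quartile of genes. Panx2 (10426150) read 7.64, 7.72 and 7.67 at ug, against 7.45, 7.37 and 7.45 in the incubator (0.26 ± 0.12, limma adjusted p = 0.444). Panx1 (10590983), the pannexin that forms ATP-releasing channels, read 8.91, 9.11 and 8.76 at ug and 8.92, 9.10 and 8.72 in the incubator, overlapping ranges (0.01 ± 0.07). Of 14 purinergic receptors and ectonucleotidases, 9 were higher and 5 lower (median 0.03), and after quantile normalization 7 were higher, with a median of the other sign (-0.0062). Of these 14 genes, 8 were in the dimmest quartile. The ATP-hydrolysing enzyme gene Entpd3 (10590306) read 6.10, 6.38 and 6.12 at ug, against 5.74, 5.81 and 5.998 in the incubator (0.35 ± 0.10, adjusted p = 0.261). On incubator arrays 1 and 2 it lay below their filter values of 5.935 and 5.90.

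Of 15 mechanosensitive channels, 9 were higher and 6 lower (median 0.01, 2 higher and 0 lower at an unadjusted p below 0.05), and 11 were higher after quantile normalization (median 0.04). The 2 were Cacna1h (10448925), a T-type calcium channel, and Kcnk4 (10465500), a potassium channel opened by stretch. Cacna1h read 6.70, 6.68 and 6.46 at ug, against 6.26, 6.39 and 6.52 in the incubator, lower at ug in pair 3 alone (0.22 ± 0.10, limma adjusted p = 0.428). Kcnk4 read 6.63, 6.83 and 7.03 at ug, against 6.44, 6.70 and 6.67 in the incubator, higher in each pair with overlapping ranges (0.23 ± 0.10, adjusted p = 0.445). Piezo1 (10582376), the main stretch-activated channel of bone cells, read 12.21, 12.20 and 11.86 at ug and 12.13, 12.15 and 11.94 in the incubator, overlapping ranges (0.01 ± 0.06, limma adjusted p = 0.927). Trpv4 (10532839), another calcium channel of load sensing, differed by 0.05 ± 0.06. Of 27 actin, SRF and YAP target genes, 8 were higher and 19 lower (median -0.03, 1 higher and 5 lower at an unadjusted p below 0.05), and 11 were higher after quantile normalization. Ccn2 (10362201), a YAP target, read 12.91, 12.68 and 12.45 at ug, against 12.96, 12.80 and 12.79 in the incubator, with the widest gap, -0.34, in pair 3 (-0.17 ± 0.08, adjusted p = 0.443). Actb (10535381), cytoplasmic beta actin, differed by -0.05 ± 0.02 and Cald1 (10537184), the actin-binding protein caldesmon, by -0.15 ± 0.06, both with groups apart. Cnn1 (10583809), the smooth muscle calponin, lay on the other side (0.27 ± 0.09, adjusted p = 0.343).

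Of 22 microtubule and centrosome genes, 4 were higher and 18 lower (median -0.05), and 5 were higher after quantile normalization. Mzt1 (10457331), a small component of the gamma-tubulin ring complex that starts microtubules, read 10.25, 10.18 and 9.81 at ug, against 10.48, 10.62 and 10.29 in the incubator (-0.38 ± 0.11, limma adjusted p = 0.244). It was the 1 member with an unadjusted p below 0.05. Collagens and other matrix genes were higher in 6 and lower in 23 of 29 cases (median -0.03), but 13 were higher after quantile normalization. Thbs1 (10474700), the matrix glycoprotein thrombospondin 1, read 12.56, 12.55 and 12.48 at ug, against 12.66, 12.66 and 12.73 in the incubator (-0.15 ± 0.05, adjusted p = 0.37). Of 24 integrin and focal adhesion genes, 11 were higher and 13 lower, and 16 were higher after quantile normalization. The collagen receptor subunit Itga1 (10412298) read 7.42, 7.30 and 7.28 at ug, against 7.58, 7.61 and 7.68 in the incubator (-0.30 ± 0.10, adjusted p = 0.331).

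Differences depended on brightness. In the dimmest quartile of genes, 76.98% were higher at ug (median 0.08), and in the brightest quartile 33.9% were (median -0.03). The median of the dimmest quartile was 0.04, 0.14 and 0.04 in pairs 1 to 3. After quantile normalization, which gives all arrays the same distribution, the shares were 58.4% and 49.1%, with medians of 0.02 and -0.00. Of 99 olfactory receptor genes, 78 were higher on the deposited values and 60 after quantile normalization (median 0.09 and 0.04). Of 17 genes of keratin-associated proteins, 17 were higher on the deposited values and 15 after quantile normalization (median 0.14 and 0.12). Numbered zinc finger genes, a family that holds many DNA-binding repressors, lay mostly lower on both scales, with 89 of 268 higher on the deposited values and 94 after quantile normalization (median -0.05 on both). Markers of other cell types lay partly among the dim genes. Of 8 endothelial markers tested, 8 were higher, 6 of them in the dimmest quartile, and 5 were higher after quantile normalization. Of 7 chondrocyte markers tested, 7 were higher on both scales (median 0.13 and 0.12). Another 2 endothelial and 3 chondrocyte markers did not pass the filter. In the other lists, the higher members were 1 of 4 macrophage, 3 of 7 adipocyte and 4 of 7 osteoclast markers. They were 5 of 9 fibroblast and 6 of 8 skeletal muscle markers. The endothelial marker Pecam1 (10392221) read 5.89, 5.76 and 6.24 at ug, against 5.68, 5.47 and 5.65 in the incubator, and reached the brightness filter on 4 of 24 arrays. The mean over the endothelial markers was 7.02 to 7.12 on the ug arrays, against 6.94 to 6.99 on the incubator arrays, and that of the chondrocyte markers 7.81 to 8.16, against 7.65 to 8.01. Every sample was the MLO-Y4 line, and a marker that reached the filter is no sign of another cell type. The part of brightness in the differences was not tested.

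**Figure D4:**
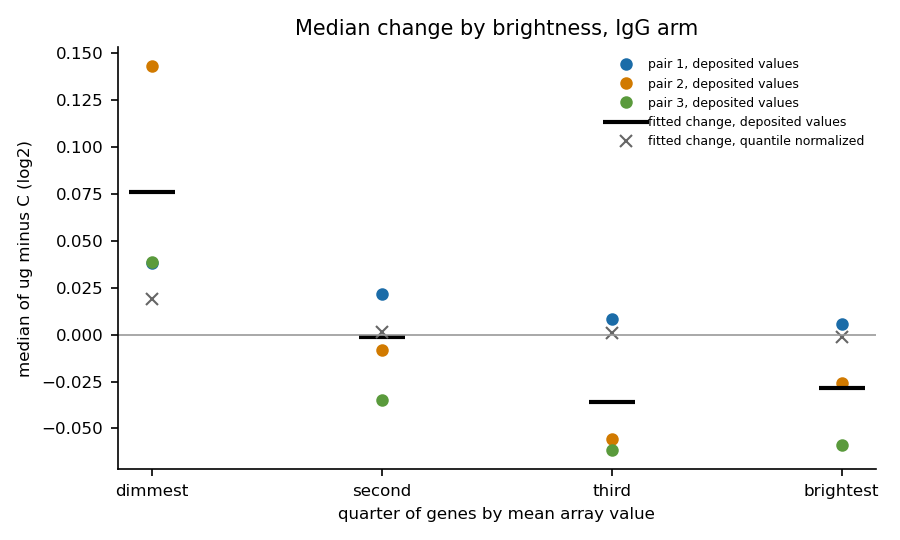
Median difference of ug minus incubator (log2) by quartile of genes ordered by mean array value, with points for the 3 array pairs and a line for the fitted difference on the deposited values, and a cross for the fitted difference after quantile normalization. The dimmest quartile lies above 0 on the deposited values, most in pair 2 (0.14), and the crosses lie near 0 in all 4 quartiles.

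The plot by brightness shows that the offset between quartiles was largest in pair 2 at the dim end and in pair 3 at the bright end. The fitted medians of the dimmest and the brightest quartile lay on either side of 0, and list counts are therefore also given after quantile normalization.

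The next question was whether ug differed from the platform position labelled 1g, where cells shared the apparatus. At an unadjusted p below 0.05 there were 494 genes (3.41%) for ug against 1g and 269 genes (1.86%) for ug against 2g, and limma called 0 in both. The 24 genes with the smallest p against the incubator had been chosen on the ug arrays, which also enter these contrasts, so their values are a description. On the higher side the median difference from the incubator was 0.39 at ug, 0.31 at 1g and 0.27 at 2g, all measured against the same 3 incubator arrays. On the lower side it was -0.32 at ug, -0.27 at 1g and -0.28 at 2g. For 1g against the incubator limma called 7 genes (0.0483%), and for 2g 0 (0%). Without the pairing it called 0 for both. Among the 7 were Banp (adjusted p = 0.0127), Serpinh1 (0.0213), Hspb1 (0.0432) and Map3k20 (0.0432) of the 24 genes, with differences at 1g of 0.51, 0.32, 0.36 and -0.26. Banp differed from the incubator by 0.46 at ug, 0.51 at 1g and 0.40 at 2g. Cirbp differed by -0.35, -0.27 and -0.35 at ug, 1g and 2g, and Serpinh1 by 0.25, 0.32 and 0.27.

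Of the 24 genes, ug differed from 1g at an unadjusted p below 0.05 in 3, Vpreb2, Il1a and Adm. Il1a was lower at ug than at 1g by 0.57 (-0.57 ± 0.16), since it lay only 0.28 below the incubator at 1g (-0.28). Adm differed from 1g by -0.19 ± 0.07 and Vpreb2 by 0.17 ± 0.08. Among immediate early genes the difference of ug from 1g was 1.86 ± 0.66 for Gem, 0.57 ± 0.24 for Egr1 and 0.55 ± 0.29 for Fos, with 1g at -0.01, -0.04 and 0.11 from the incubator. A3galt2, a dim gene below the filter value on some arrays, differed from 1g by 0.65 ± 0.21, and Txnip by -0.37 ± 0.12. Without number 2, limma called 2 genes for ug against 1g, Gem (2.81) and Txnip (-0.60), and the same 2 for ug against 2g (3.02 and -0.65).

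The last question was whether the difference between ug and the incubator was the same when Cx43(E2) took the place of the irrelevant IgG. The E2 arm has its own 3 ug and 3 incubator arrays. The difference between the arms, tested as an interaction, was called for 0 genes by limma, with 1043 genes (7.20%) at an unadjusted p below 0.05 and a smallest adjusted p of 0.684. For ug against C in the E2 arm itself, limma gave 1485 of 14489 genes an unadjusted p below 0.05, in either direction. The median over all genes tested was -0.025 there. Of the 12 higher genes, 8 were higher in the E2 arm too, 2 of them at an unadjusted p below 0.05. Their median there was 0.03. Of the 12 lower genes, 11 were lower in the E2 arm, 6 of them at an unadjusted p below 0.05, and the median was -0.12. The difference was smaller in the E2 arm for 11 of 12 genes in each direction, and the genes had been chosen for a large effect in the IgG arm.

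Values in both arms are given here for the heat shock genes and for other genes with the smallest p. Hspa1a was 0.38 higher at ug in the E2 arm, against 0.52 in the IgG arm (difference between the arms 0.15 ± 0.15, unadjusted p = 0.34). Hspb1 was 0.05 higher in the E2 arm, against 0.31 (0.26 ± 0.09, unadjusted p = 0.0095), and Serpinh1 0.01, against 0.25 (0.25 ± 0.07, unadjusted p = 0.0027). Banp had 0.05 in the E2 arm, against 0.46 (0.41 ± 0.10, unadjusted p = 0.00069), and Efna2 -0.05, against 0.39 (0.44 ± 0.10, unadjusted p = 0.00043). Cirbp had -0.12 in the E2 arm, against -0.35 in the IgG arm (-0.23 ± 0.09, unadjusted p = 0.022). Il1a had -0.57, against -0.84 (-0.28 ± 0.23, unadjusted p = 0.24). None of these passed the adjustment over 14489 genes by limma. The genes were chosen for a small p in the IgG arm, and that difference is part of the interaction. The choice favours a smaller difference in the E2 arm and a low p here, so these values are a description.

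**Figure D5:**
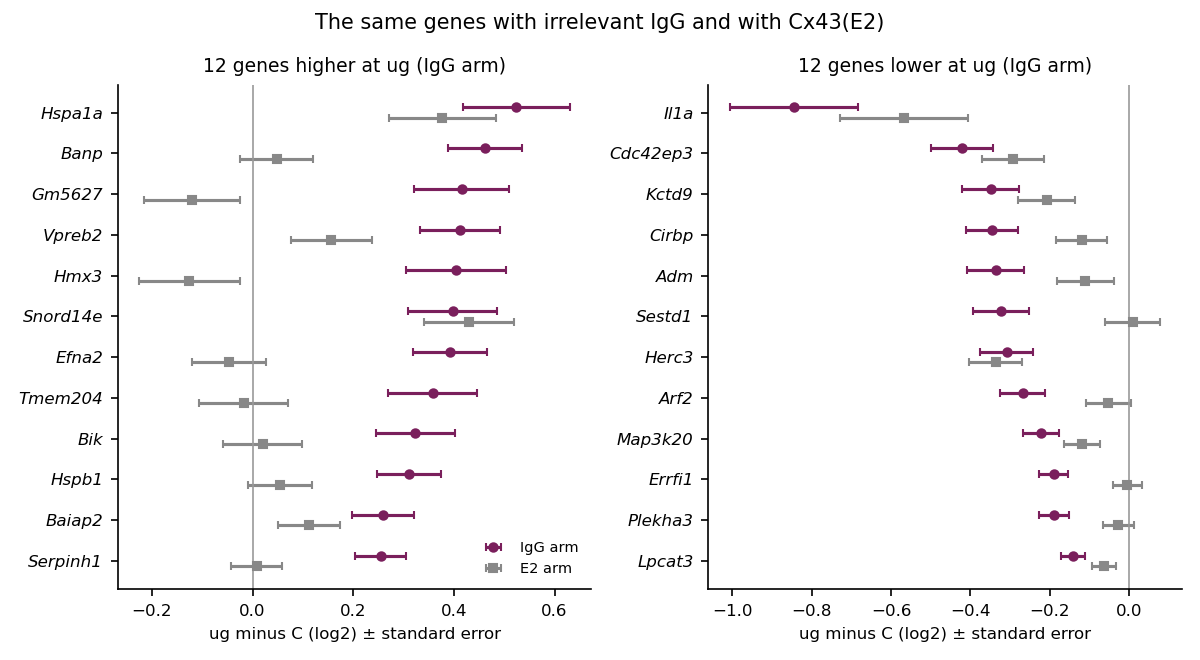
Difference of ug minus incubator (log2 ± standard error) in the IgG arm (circles) and in the E2 arm (squares) for the 12 genes with the smallest p in each direction in the IgG arm. Hspa1a, Snord14e, Il1a and Herc3 keep a large part of their difference in the E2 arm, while Banp, Efna2, Hspb1 and Serpinh1 lie between -0.05 and 0.05 there.

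The plot of both arms shows that the genes did not shrink in proportion: Snord14e was 0.43 higher at ug in the E2 arm, against 0.40 in the IgG arm, and Herc3 -0.34, against -0.31. Of the immediate early genes, 27 of 30 were higher at ug in the E2 arm, with a median of 0.32, against 21 of 30 and 0.11 in the IgG arm. Over all genes tested the median in the E2 arm was -0.025. These counts are on the deposited values. The difference between the arms had an unadjusted p below 0.05 for 6 of the 30. Gem was 2.91 higher at ug in the E2 arm (difference between the arms -1.06 ± 0.94, unadjusted p = 0.272), Atf3 1.39 and Fos 1.21. No label ties the wide spread of these genes over the 3 IgG pairs to a cause, and none was tested.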

How the data were processed

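RNA from 24 MLO-Y4 samples was measured on 1 array each, 3 per group, and groups were read from titles. The authors deposited log2 values per probe set; MAS5 was used, per the submitters' processing notes, with its role and version, and the scaling between arrays, not given in the sources used here. Of 35556 probe sets, 21789 had 1 gene symbol, and 21698 matched RefSeq (GRCm38.p6, names and promoters) by gene number. The filter on dim probe sets asked for a value at or above the 40th percentile of the array, on 3 or more of the 24 arrays; taking the brightest probe set per gene then gave 14489 genes.

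The test was limma (version 3.58.1, R version 4.3.3) with 8 group means, array set (arm and title number, 6 levels) as a block, moderated variances with a trend, two-sided, Benjamini-Hochberg adjustment, threshold 0.05, with 12 residual and 8.29 prior degrees of freedom. The numbers were taken to pair arrays from the values, not from a label. In the IgG arm 18 of 18 same-number pairs of arrays correlated above 0.1 across genes (0.25 to 0.76). So did 14 of 16 pairs between numbers 1 and 2 (0.00 to 0.55), and this cut does not separate those numbers. Of 12 arrays, 9 correlated best with their own number. Replicates were distinct arrays, with at most 6 identical values. In simulated data for ug minus C with 14489 genes, 36%, 94%, 100% and 100% of genes altered by 0.25, 0.5, 1 and 2 were recovered. The simulation altered a small part of the genes, with independent normal noise, the variances of the paired fit and additive effects of the array sets. It thus takes the pairing as true and leaves out uneven spreads such as that of Gem. These shares check the code and are not the power in the real data. Named genes were the 12 smallest p in each direction with 1 sign in the 3 pairs, the 6 largest changes, up to 4 members of each list, Gja1 and 12 chosen by name. The comparison, members and lists were chosen with earlier results of these data known. Alternatives were no block, a random block, fewer arrays, quantile normalization, other filters, the mean of a gene's probe sets, no trend and leaving out each number.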

Additional observations from a re-analysis of the deposited data

Results flagged for a closer look

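Outside the tested genes, 1 probe set that the array's table lists under several gene symbols passed its own test among 925 such probe sets, and is given without a gene name. Probe set 10450367 read 9.60, 9.89 and 10.03 on the ug arrays, against 8.94, 9.16 and 9.24 on the incubator arrays. The groups did not overlap, and the pairs differed by 0.66, 0.73 and 0.79 (0.72 ± 0.12, limma adjusted p = 0.00678 over the 925). Of the 925, 79 had an unadjusted p below 0.05. Of 5930 probe sets with no symbol, limma called 0 and 452 had an unadjusted p below 0.05.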

How the results depend on the processing

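Genes called numbered 0 without the replicate block, with the array set as a random block (correlation 0.355), without a filter (19938 genes), without a variance trend and, as added after seeing the data, with each probe set tested on its own. They numbered 2 with only the IgG arm (Il1a and Ccl3), 3 with only the 6 arrays compared (Il1a, Ccl3 and Acot2, -0.34), 3 after quantile normalization (Banp, 0.51, adjusted p = 0.00466, Efna2, 0.43, and Serpinh1, 0.29), 1 with a stricter filter and 1 with the mean of a gene's probe sets (Banp both times, adjusted p = 0.0493), and 0 to 2 without 1 number. For ug against 1g and against 2g they numbered 0 to 2 without 1 number. Genes at an unadjusted p below 0.05 numbered 748 without the replicate block (483 higher and 265 lower, smallest adjusted p 0.949), 2545 with only the 6 arrays, 1422 with the random block and 607 to 1341 without 1 number. The split was 632 higher and 950 lower as reported (39.9% higher), 760 and 641 after quantile normalization, 754 and 668 with the random block, and 50.7% higher without a filter. Genes whose groups do not overlap numbered 1890, and 3533 to 6675 without 1 number, where fewer arrays must be apart. Of 336 recomputed list medians 40 moved by more than the spread between pairs, 14 of them under quantile normalization. For the 99 genes whose values are named, 1159 of 1181 recomputed differences kept their sign and their side of the adjusted threshold, 13 newly passed it and 9 changed sign. Hspa8 was at 0.0041 after quantile normalization and at -0.040 to 0.018 without 1 number. Leaving out 1 number also gave -0.021 to 0.11 for Col1a1, -0.084 to 0.060 for Hsp90aa1, -0.23 to 0.61 for Nr4a1, -0.016 to 0.060 for Piezo1, -0.11 to 0.15 for Tnfrsf11b and -0.31 to 0.19 for Tnfsf11. The cause of these changes was not tested. The dim genes are limited by signal over background and all results by 3 arrays a group.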
